A study of Homo sapiens with 36 samples.

Results

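The Mir-181 guide strands were followed in small RNA libraries from lysates and AGO2 immunoprecipitates of HEK293T cells, a human embryonic kidney line. Members were the rows of the mature miRNA table whose MirGeneDB name begins with Hsa-Mir-181- and does not end in an asterisk, the mark of a passenger strand. There were 5 such rows of 135. The rows of P1a and P1b (ending in _5p, like all members) held the same value in every library, as did those of P2a and P2b, so each pair was counted once. This left 3 distinct guides, called P1a/P1b, P1c and P2a/P2b here.

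The study asked whether AGO2 variants found in individuals with a neurodevelopmental disorder change the miRNAs bound by AGO2. A plasmid for Flag/HA-AGO2 was transfected, either wild type (WT) or carrying F182del, N359H, G604R or D619N, or else the Flag/HA-empty vector (Empty), and each AGO2 vector was given together with pEGFP-C1. From each cleared lysate a sample was kept as input and the rest was immunoprecipitated with anti-HA beads (IP). Each of the 12 conditions had 3 replicates, 36 libraries in all. The tagged protein was expressed from a plasmid in cells that also hold their own AGO proteins, so the inputs contain miRNAs of both. The labels do not say whether replicates were separate transfections, and p-values measure only the spread between these libraries.

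A miRNA is cut from a hairpin as a duplex of 2 strands. One strand, the guide, is usually kept in an Argonaute protein such as AGO2, and the other, the passenger, is usually discarded. The guide finds its target mRNAs mainly through its seed, bases 2 to 8. The miR-181 family is conserved across vertebrates and is known for its abundance in brain and lymphocytes, where miR-181a tunes T cell receptor signalling.

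The 3 distinct guides share 1 seed, and their sequences are shown because they differ only outside it. P1a/P1b corresponds to miR-181a-5p, P1c to miR-181c-5p and P2a/P2b to miR-181b-5p. The sequences are from RefSeq (GRCh38.p14), written 5′ to 3′ with the seed in capitals.
hsa-miR-181a-5p: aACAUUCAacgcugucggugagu
hsa-miR-181b-5p: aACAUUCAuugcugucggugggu
hsa-miR-181c-5p: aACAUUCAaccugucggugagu
The seed is ACAUUCA in each. Counted from 1 at the 5′ end of miR-181a-5p, miR-181b-5p differs from it by A9U, C10U and A21G. miR-181c-5p shares the first 10 bases of miR-181a-5p and is 22 bases long instead of 23.

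miR-181a and miR-181b each come from a pair of loci with the same mature sequence, which is why their rows cannot be separated. The mature miR-181a-5p lies on the minus strand at chr1:198859108-198859130 (MIR181A1) and on the plus strand at chr9:124692480-124692502 (MIR181A2). The mature miR-181b-5p lies beside each, at chr1:198858925-198858947 (MIR181B1, minus) and chr9:124693725-124693747 (MIR181B2, plus). The chromosome 1 pair is in an intron of the lincRNA gene MIR181A1HG, and the chromosome 9 pair is in introns of MIR181A2HG and, on the opposite strand, of the protein-coding gene NR6A1. miR-181c-5p lies at chr19:13874725-13874746 on the plus strand, in an intron of NANOS3. Which of P1a and P1b is MIR181A1 is not given in the sources used here.

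The table also listed the 2 passenger strands of the miR-181a loci, named P1a* and P1b*. Unlike the guides, they differ from each other and can be told apart, also in their seeds.
hsa-miR-181a-3p: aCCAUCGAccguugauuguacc
hsa-miR-181a-2-3p: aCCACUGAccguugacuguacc
The first comes from MIR181A1 and the second from MIR181A2, and the second differs from the first by U5C, C6U and U16C. Their seeds, CCAUCGA and CCACUGA, are unlike the guide seed.

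The values are RPM, reads scaled to a library total of 1000000. Every value was a whole multiple of the value of 1 read, within a tolerance of 0.02 of a read, and the read numbers below come from that step. How the reads of identical rows were credited is not described, so a read number is the number credited to a row. IP libraries of AGO2-expressing cells held 16636 to 754009 reads, Empty IP libraries 18032 to 48080 and inputs 9395 to 4162450. The replicate 1 inputs of G604R (9395 reads) and D619N (17118 reads) were far shallower than the other inputs. A count of 0 allows up to 3 reads, which on average was 16.9 RPM in WT IP, 91.2 RPM in D619N IP and 112 RPM in Empty IP. Intervals and these limits cover counting error only. Because miRNAs made up a different part of each library, levels are also given per 1000000 mature miRNA reads over the distinct rows (mature CPM). Of 14 miRNAs listed as markers of other cell types, 1 (Mir-128, known from neurons) had rows in the table.

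P1a/P1b, miR-181a, was highest in D619N IP among the immunoprecipitates, by mean RPM and by mean mature CPM. Its read numbers were low throughout, and in the D619N library with 2 reads it lay under the limit of 3 reads. In WT IP it was listed with 13, 0 and 1 reads in replicates 1, 2 and 3, or 434, 0 and 170 mature CPM. In D619N IP it had 13, 5 and 2 reads, or 1943, 1957 and 1031 mature CPM. Every D619N IP library was above every WT IP library, although the D619N libraries were shallower. In scaled RPM 37.4% of all tested miRNAs (46 of 123) did not overlap between these groups, 14 of them higher in D619N. At the mean share seen in D619N IP, the 3 WT IP libraries would have held 49.2, 10.2 and 9.67 reads of P1a/P1b. That share rests on 20 reads in total, so these numbers restate the difference at WT depth and are no further test of it. In RPM the D619N libraries stood at 227, 68.3 (95% Wilson interval 29.2 to 160) and 120, against 46.4, 0 and 3.65 in WT IP. By mean RPM P1a/P1b ranked 40th among the distinct rows in D619N IP and 107th in WT IP.

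In the other immunoprecipitates P1a/P1b was listed with few reads. F182del IP had 3, 1 and 7 reads, or 347, 319 and 397 mature CPM, the narrowest spread of the AGO2 groups. G604R IP had 1, 0 and 2 reads (384, 0 and 557 mature CPM), and N359H IP had 0, 1 and 0 reads (0, 165 and 0 mature CPM). These groups all overlapped WT IP. Ordered by their mean mature CPM, the IP groups were D619N (1644 ± 530, SD, n = 3), F182del (354 ± 39.3), G604R (314 ± 285), WT (201 ± 219) and N359H (54.9 ± 95), and Empty IP was at 0. Among neighbours in this order, only D619N and F182del did not overlap.

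In the inputs P1a/P1b was the leading Mir-181 guide in every group by mean. WT input had 16, 3 and 0 reads, or 1779, 706 and 0 mature CPM, and N359H input had 3, 17 and 4 reads, or 1491, 1469 and 1802. D619N input had 2, 0 and 4 reads, or 2594, 0 and 1278 mature CPM, and so spanned the range of all other inputs. The group means ran from 828 ± 896 (WT) to 1587 ± 186 (N359H), and every pair of neighbours in that order overlapped. F182del input (2003, 756 and 1394), G604R input (2364, 385 and 1529) and Empty input (2148, 1311 and 829) lay within the same range.

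**Figure D1:**
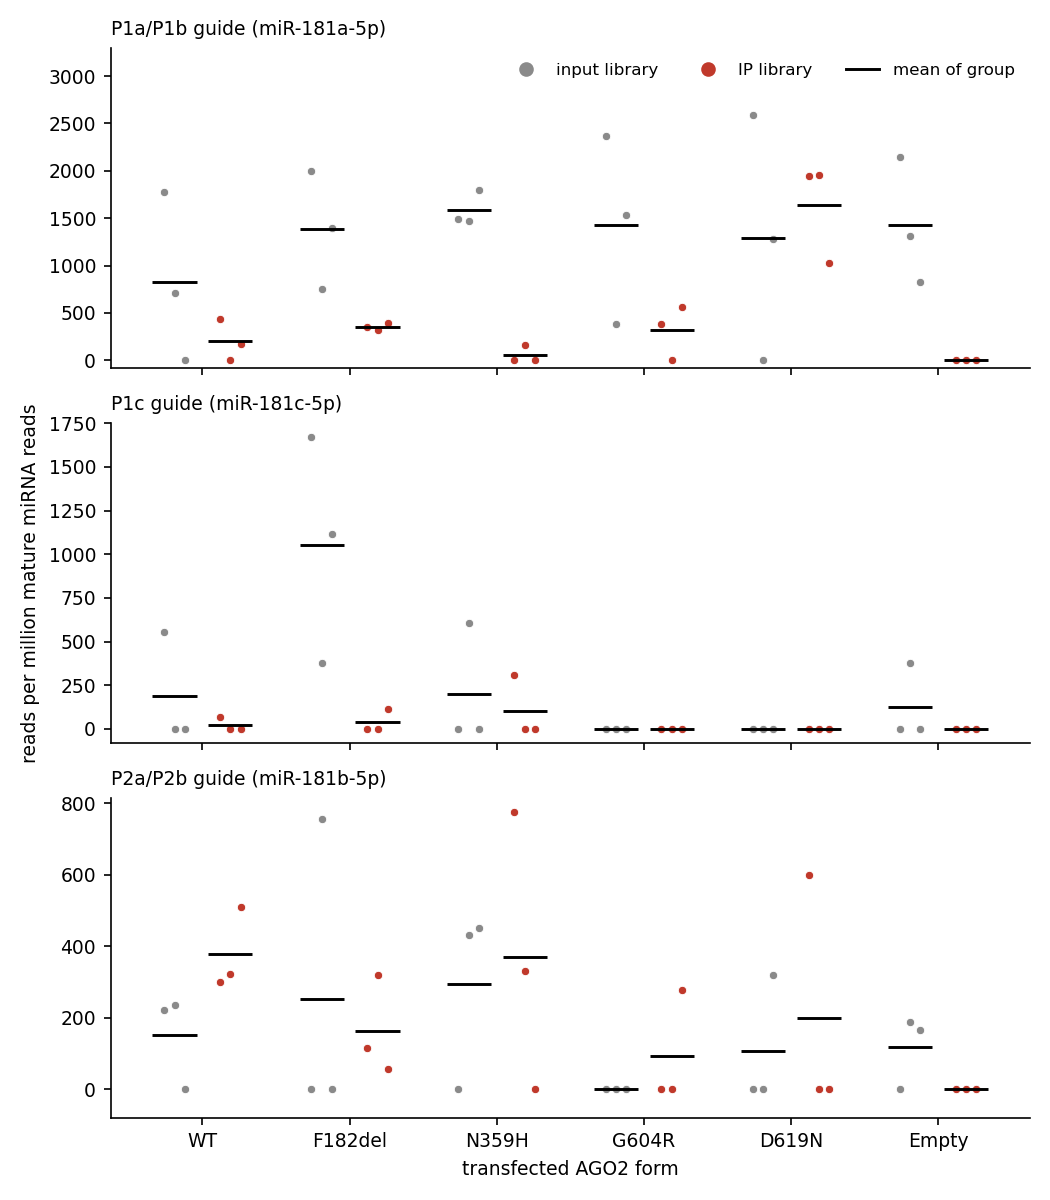
Level of each distinct Mir-181 guide strand in every library, in mature CPM (per 1000000 mature miRNA reads), with 1 point per replicate and the group mean as a bar. The 3 D619N IP points of P1a/P1b (1031 to 1957) lie above all points of the other IP groups, while the input groups overlap.

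P2a/P2b, miR-181b, was listed in all 3 libraries of WT IP and of F182del IP, and not in every library of the other variants. WT IP had 9, 2 and 3 reads, or 301, 321 and 510 mature CPM. F182del IP had 1 read in each library (116, 319 and 56.7 mature CPM), and N359H IP had 5, 2 and 0 reads (776, 329 and 0 mature CPM). G604R IP held 1 read, in replicate 3, and D619N IP held 4 reads, all in replicate 1 (598 mature CPM). All G604R IP libraries were below all WT IP libraries, and in scaled RPM 19.5% of all tested miRNAs (24 of 123) did not overlap between these groups. The mean limit of 3 reads was 26.4 RPM in G604R, 64.1 RPM in N359H and 91.2 RPM in D619N IP. Each lies above the WT IP mean of 20.8 RPM, so a loss of P2a/P2b was not detectable by counts there. The means were 377 ± 115 mature CPM in WT IP (SD, n = 3), 368 ± 389 in N359H, 199 ± 345 in D619N, 164 ± 138 in F182del and 92.9 ± 161 in G604R IP, and neighbours in this order overlapped. In the inputs it did not exceed 5 reads in a library, and G604R input was at 0.

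P1c, miR-181c, appeared in every library of F182del input only. That group had 5, 2 and 4 reads, or 1669, 378 and 1115 mature CPM. WT input had 5, 0 and 0 reads (556 mature CPM in replicate 1) and N359H input 0, 7 and 0 (605 mature CPM in replicate 2). In the immunoprecipitates it was listed with 2 reads in 1 library each of WT, F182del and N359H, and at 0 in all G604R, D619N and Empty libraries. None of the P1c values was a single read, whereas 15 of the values of the 3 distinct guides were.

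As a family, the guides took a small part of the miRNA reads. Their summed share of mature miRNA reads was 0.0601% ± 0.0250 in WT IP (SD, n = 3), 0.0556% ± 0.00879 in F182del, 0.0527% ± 0.0544 in N359H and 0.0407% ± 0.0418 in G604R IP. D619N IP stood at 0.184% ± 0.0761, and its libraries were all above the WT IP libraries. The difference of 0.124 percentage points had an exact two-sided permutation p of 0.1, the smallest that 3 libraries against 3 can give, and a Benjamini-Hochberg adjusted p of 0.55 over 11 comparisons. As a share of all reads in the library, the D619N and WT IP values overlapped (exact permutation p = 0.2). The input shares ran from 0.117% ± 0.129 (WT) to 0.269% ± 0.0904 (F182del), and none of the input comparisons went below an exact permutation p of 0.3. WT IP did not differ from WT input beyond the spread of the libraries (exact permutation p = 0.7).

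**Figure D2:**
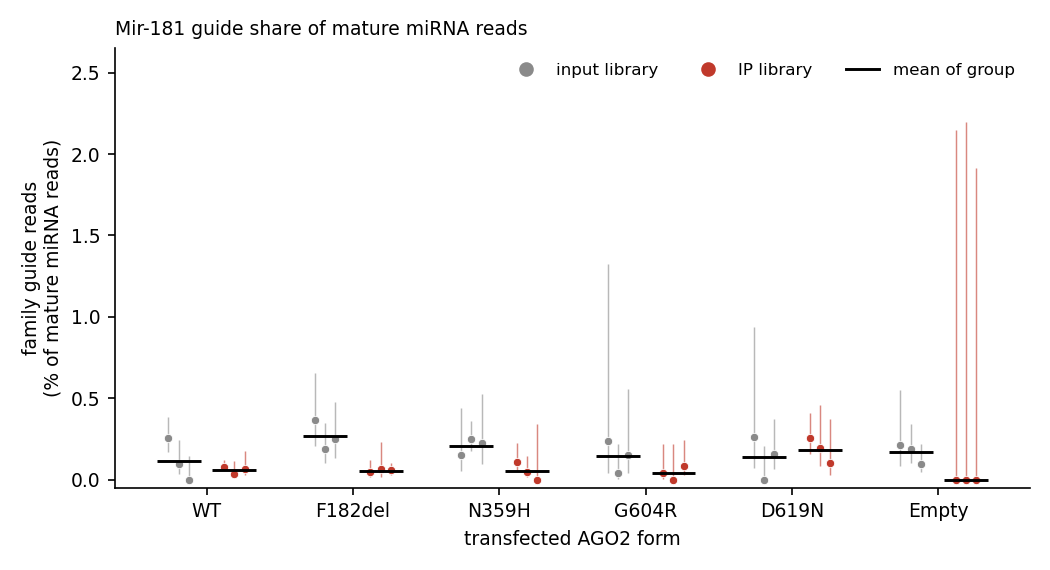
Summed share of mature miRNA reads taken by the 3 distinct Mir-181 guides in each library, in percent, with 95% Wilson intervals for counting error. The D619N IP libraries average 0.184%, against 0.0601% in WT IP and 0 in Empty IP.

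The make-up of the family also varied. P1 members (P1a/P1b and P1c) made up 29.2% ± 31.5 of the family's guide reads in WT IP (mean over libraries, SD, n = 3), 71.7% ± 20.2 in F182del IP and 92.2% ± 13.6 in D619N IP. Over the libraries with any guide read they made up 31.0% ± 3.37 in N359H IP and 83.3% ± 23.6 in G604R IP (2 libraries each). The D619N libraries were all above the WT libraries, a difference of 63.0 percentage points with an exact permutation p of 0.1, the smallest possible, and 0.25 adjusted over 5 comparisons. These shares rest on few family reads: 24, 2 and 4 in WT IP and 17, 5 and 2 in D619N IP. Pooled over reads, the P1 share was 53.3% in WT IP (16 of 30) and 83.3% in D619N IP (20 of 24), since WT replicate 1 holds most of the WT reads. It was 81.25% in F182del IP (13 of 16), 75% in G604R IP (3 of 4) and 30% in N359H IP (3 of 10), so a high pooled share was not particular to D619N. In WT input the pooled share was 88.9%.

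Each variant IP was compared with WT IP by limma, with RPM values brought to a common scale by median of ratios, 1 RPM added and the log2 taken, and a miRNA was called at a Benjamini-Hochberg adjusted p under 0.05 and an absolute log2 fold change over 1. Both P1a/P1b and P2a/P2b were tested, and neither was called in any of the 4 comparisons, while P1c was under the filter on low values (at least 1 scaled RPM in 2 libraries of a group). P2a/P2b passed that filter only through WT IP in the G604R and D619N comparisons, as did P1a/P1b in the N359H comparison. The share of all tested miRNAs called was 6.02% for F182del (8 miRNAs), 0% for N359H (0 of 123, with 6 at an unadjusted p under 0.05), 4.88% for G604R (6 of 123) and 14.6% for D619N (18 of 123). Where a guide is listed at 0 in some libraries, the size of its fitted log2 fold change depends on the added RPM: for P1a/P1b in D619N it was 3.91 with 1 RPM and 2.53 with 10 RPM.

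For P1a/P1b, the log2 fold change against WT IP was 3.91 in D619N (SE 1.45, unadjusted p = 0.0334, limma adjusted p = 0.123). It was the second highest of 123, where the median of all was -1.18, and over the alternative settings the adjusted p ran from 0.0435 to 0.232, with a call only at a pseudocount of 10 RPM. D619N against WT was also the comparison in which 37.4% of tested miRNAs (46 of 123) did not overlap between the groups. F182del (1.53, SE 1.32, adjusted p = 0.578), G604R (0.37, SE 1.54, adjusted p = 0.893) and N359H (-1.51, SE 1.62, adjusted p = 0.793) showed no change of P1a/P1b beyond the spread of the libraries.

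P2a/P2b had no called change in any variant. Its log2 fold changes were -1.25 in F182del (SE 1.17, adjusted p = 0.578), -1.07 in N359H (SE 1.95, adjusted p = 0.793), -2.67 in G604R (SE 1.17, adjusted p = 0.318) and -2.77 in D619N (SE 1.69, adjusted p = 0.289). The N359H value turned to 0.61 without N359H IP replicate 3, and the mean mature CPM of N359H and WT IP were close (368 and 377). The median of all tested miRNAs was itself negative in N359H (-0.56), G604R (-0.34) and D619N (-1.18), and P2a/P2b ranked 54th, 15th and 35th from the lowest of 123 there. The 4 comparisons share the WT libraries. In G604R the groups did not overlap, which held for 19.5% of all tested miRNAs there (24 of 123), against 22.6% (30 miRNAs) in F182del and 9.76% (12 of 123) in N359H. The mean limit of 3 reads in G604R IP (26.4 RPM) lies above the WT IP mean of P2a/P2b (20.8 RPM), as does that in D619N IP (91.2 RPM). A decrease of P2a/P2b was therefore not detectable by counts in these groups, and nothing is read from the lack of overlap. P2a/P2b passed the threshold without G604R replicate 3 (limma adjusted p = 0.0220) and, in D619N, without D619N replicate 1 (adjusted p = 0.0128). These were the only libraries of their groups with a read of it, so their removal leaves groups at 0 throughout, and nothing is read from those calls.

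**Figure D3:**
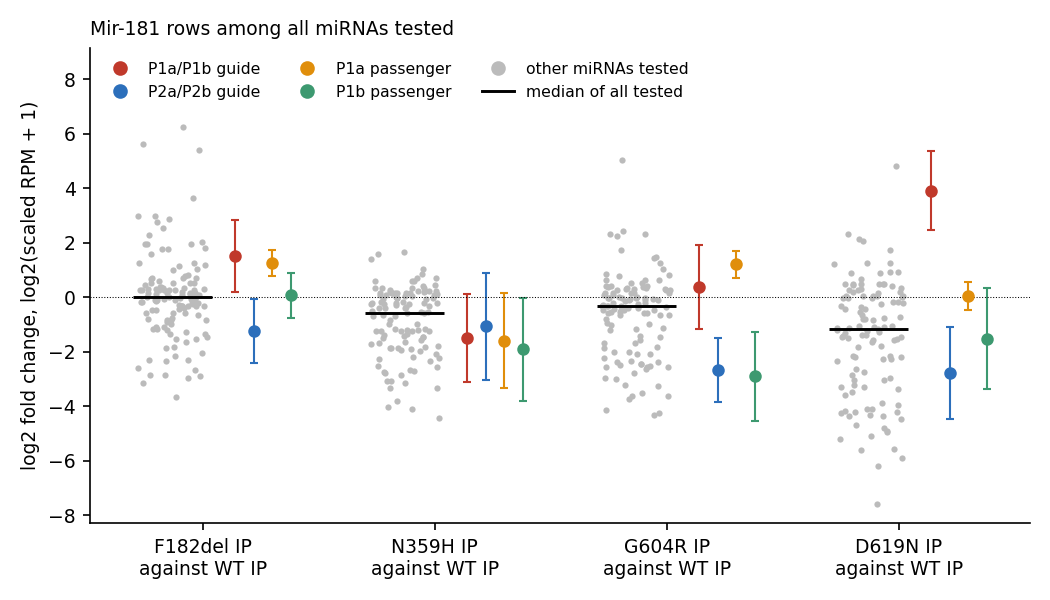
Log2 fold change (RPM + 1 scale, with standard error) of the Mir-181 guide and passenger strands in each variant IP against WT IP. P1a/P1b lies highest in D619N (3.91) and P2a/P2b lies below 0 (-1.07 to -2.77), where the N359H value turns to 0.61 without N359H IP replicate 3, and none of the values was called.

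Guides of 3 other families were set beside these. Of 5 Mir-30 guides tested, 1 was called lower in D619N IP and none in the other variants, with medians of -0.11 (F182del), 0.32 (N359H), 0.25 (G604R) and -1.11 (D619N) on the log2 scale. No guide of the Mir-17 family (6 or 7 tested) or the Let-7 family (8 or 9 tested) was called in a variant IP against WT IP. In D619N IP their medians were -2.17 and -0.14, against 3.91 and -2.77 for the pair of Mir-181 guides tested.

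Each IP was then compared with its own input, which asks which strands are enriched with the tagged protein relative to the other miRNAs. The miRNAs called were 11.9% of those tested for WT (15 of 126), 23.5% for F182del (31 of 132), 11.7% for N359H (14 of 120), 8.57% for G604R (9 of 105, and 0 with replicate as a block) and 17.5% for D619N (18 of 103, and 2 with the block). Among the guides, 1 was called: P1c was lower in F182del IP than in F182del input (-2.73, SE 0.94, limma adjusted p = 0.0357). It passed the filter only through the inputs, and the value rests on 11 input reads against 2 IP reads, and the call was lost without F182del input replicate 1 (adjusted p = 0.0855) or 3 (0.0789) and without F182del IP replicate 1 (0.0963) or 3 (0.0504).

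P1a/P1b was not called against input in any group. Its log2 fold change was -1.03 in WT (SE 1.23, limma adjusted p = 0.562), -1.29 in F182del (SE 0.83, 0.267), -3.97 in N359H (SE 1.57, 0.0888), -1.76 in G604R (SE 1.12, 0.309) and 2.04 in D619N (SE 1.63, 0.409). D619N was the 1 group with a positive value on this scale, while in RPM as deposited WT (0.99) and F182del (1.38) were also positive and D619N stood at 3.85. The N359H value was called at a pseudocount of 10 RPM (-1.63, adjusted p = 0.0193). It also passed without N359H IP replicate 2 (adjusted p = 0.0485), the 1 IP library with a read, which leaves the group at 0. Nothing is read from that, since the mean limit of 64.1 RPM in N359H IP lies above the input mean of 9.55 RPM. P2a/P2b stood at 1.32 in WT (SE 0.84, adjusted p = 0.251), 0.37 in F182del and 0.26 in N359H, and was not called. In RPM as deposited, where the median miRNA was 3.74 higher in WT IP than in input on the log2 scale, P2a/P2b had 3.74 and was called (adjusted p = 0.00369), while P1a/P1b was not (0.485).

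Whether the IP to input difference itself changed with a variant was tested as an interaction. No guide passed, while 0.741% of miRNAs did for F182del (1 of 135, and 6 with the block), 0% for N359H (0 of 130), 1.54% for G604R (2 of 130, and 0 with the block) and 3.94% for D619N (5 of 127, and 1 with the block). The interaction of P1a/P1b with D619N was 2.91 (SE 2.31, limma adjusted p = 0.533), so the difference between -1.03 in WT and 2.04 in D619N did not exceed the spread.

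Between the inputs no guide was called against WT input. There the share of miRNAs called by limma was 0% for F182del (0 of 114), N359H and G604R (0 of 106 each), D619N and Empty (0 of 105 each), with 9, 2, 11, 4 and 3 at an unadjusted p under 0.05. With replicate as a block, 1 miRNA was called in Empty input and no guide. P1c in F182del input was the 1 guide at an unadjusted p under 0.05 (1.37, SE 0.59, adjusted p = 0.516). It passed the filter only through F182del input, where it is high. P2a/P2b, at 0 in every G604R input, passed only through WT input and was called there without WT input replicate 3, the 1 WT library at 0 (limma adjusted p = 2.96e-04). The mean limit of 109 RPM in G604R input lies far above the WT input mean of 0.584 RPM, so a difference of this size was not detectable and nothing is read from that call.

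In Empty IP, the background of the pull-down, every Mir-181 strand was listed at 0. The 3 Empty IP libraries held 171 to 197 mature miRNA reads, and 79.3% of tested miRNAs (96 of 121) were called lower than in WT IP in RPM as deposited. P2a/P2b was among them (limma adjusted p = 2.00e-04) and P1a/P1b was not (adjusted p = 0.195, or 0.0104 without WT IP replicate 2). The mean limit of 112 RPM in Empty IP lay above the WT IP means of both (20.8 and 16.7 RPM), so no fold is given and a difference of this size was not detectable by counts at this depth.

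The passenger strands of the miR-181a loci outnumbered the miR-181a guide in 4 of the 5 AGO2 immunoprecipitates. WT IP held 63, 13 and 7 passenger reads beside 13, 0 and 1 guide reads, so passengers were 82.9%, 100% and 87.5% of the reads of these loci. The share was 91.4%, 88.9% and 88.5% in F182del IP, 90.9%, 100% and 83.3% in G604R IP, and 100% and 92.9% in the N359H IP libraries that held any read. In D619N IP it was 48.0%, 28.6% and 71.4%, from 12, 2 and 5 passenger reads beside 13, 5 and 2 guide reads. All D619N libraries were below all WT libraries.

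This measure was chosen after the values had been seen. The difference between D619N and WT IP was -40.8 percentage points, with an exact permutation p of 0.1, the smallest possible, and 0.5 adjusted over 5 comparisons. It ran from -51.8 to -30.4 when 1 library was left out and was -48.3 when the identical guide rows were counted each. Pooled over reads, passengers were 85.6% in WT IP (83 of 97), 89.5% in F182del (94 of 105), 95.8% in N359H (23 of 24), 88.9% in G604R (24 of 27) and 48.7% in D619N IP (19 of 39). In the inputs the pooled shares were 26.9% in WT (7 of 26), 48.3% in F182del, 36.8% in N359H, 50% in G604R, 36% in Empty and 0% in D619N (0 of 6 reads, with a 95% Wilson interval up to 39.0%). The WT input libraries stood at 23.8%, 0% and 100%, from 5, 0 and 2 passenger reads beside 16, 3 and 0 guide reads. WT IP did not differ from WT input in this share beyond the spread of the libraries (exact permutation p = 0.4). The overlap rests on the input library at 100%, which holds 2 reads.

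**Figure D4:**
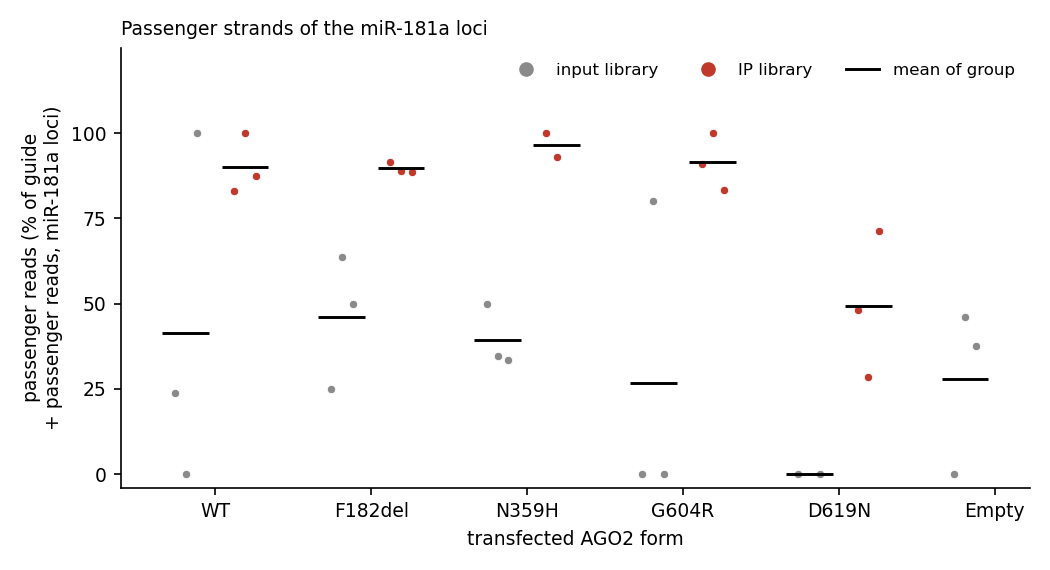
Passenger strands as a percentage of the reads of the miR-181a loci (P1a* and P1b* over these plus P1a/P1b), 1 point per library. D619N IP (28.6 to 71.4%) lies below WT IP (82.9 to 100%), and the inputs spread from 0 to 100%.

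The passenger levels themselves were close between D619N and WT IP for P1a*. Its log2 fold change against WT IP was 0.04 in D619N (SE 0.52, limma adjusted p = 0.955), 1.26 in F182del (SE 0.46, 0.173), 1.21 in G604R (SE 0.49, 0.318) and -1.59 in N359H (SE 1.76, 0.793). P1b* stood at 0.07 in F182del, -1.92 in N359H, -2.91 in G604R and -1.53 in D619N, none called. G604R IP held 21 reads of P1a* and 3 of P1b* (in 1 library), against 46 and 37 in the deeper WT IP libraries. In mature CPM (mean ± SD, n = 3) P1a* stood at 2588 ± 264 in G604R IP and 994 ± 162 in WT IP. P1b* stood at 384 ± 666 and 800 ± 409. By mean RPM, P1a* and P1b* ranked 64th and 67th among the distinct rows in WT IP, ahead of P1a/P1b at 107th and P2a/P2b at 99th.

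Against its own input P1a* was called higher in F182del IP (2.82, SE 0.83, limma adjusted p = 0.0189). It was also called in G604R (adjusted p = 0.00530) and D619N (0.0276), where it passed the filter only through the IP libraries, all inputs being at 0. With the block the G604R and D619N calls were lost (adjusted p = 0.0714 and 0.0901). In D619N the IP mean of 95.8 RPM came from 8, 2 and 2 reads and lay near the mean limit of 3 reads in these IP libraries (91.2 RPM). In replicate 1 the limit of 3 reads in the D619N input (175 RPM) was above the IP value (140 RPM). In replicates 2 and 3 the input limits (4.71 and 3.28 RPM) were below the IP values (27.3 and 120 RPM), which rest on 2 reads each. In G604R the mean input limit (109 RPM) was above the IP mean (56.8 RPM), but it came mostly from the shallow replicate 1 input. There the limit was 319 RPM, above the IP value (72.7 RPM), so the difference was not detectable by counts. In replicates 2 and 3 the input limits (2.59 and 5.21 RPM) were below the IP values (42.0 and 55.6 RPM, from 4 and 10 reads). No fold is given for either group. In WT, P1a* stood at 2.17 (SE 0.91, adjusted p = 0.126) and P1b* at 2.67 (SE 0.93, adjusted p = 0.0704).

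The ratio of passenger to guide was also tested per hairpin as a linear model on log2 CPM, with the shared guide value used for both miR-181a hairpins. Neither Mir-181 ratio was called in any variant. The hairpins called by limma were 0% for F182del (0 of 23, with 2 at an unadjusted p under 0.05), 4.76% for N359H (1 of 21), 9.09% for G604R (2 of 22) and 4.76% for D619N (1 of 21). In D619N the ratio changed by -5.23 for P1a (SE 2.58, adjusted p = 0.329) and -8.10 for P1b (SE 4.04, adjusted p = 0.329) on the log2 scale, beside a median of -2.50 over all hairpins.

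Over the 10 AGO2 groups, IP and input, scaled log2 group means of miRNAs were correlated with those of the 3 distinct Mir-181 guides summed. The miRNAs that followed this sum most closely were ranked by Pearson's r. They were Hsa-Mir-561_5p (r = 0.665), Hsa-Mir-378_3p (0.610), Hsa-Let-7-P2c3_5p (0.528), Hsa-Mir-128-P2_3p (0.526) and Hsa-Mir-27-P2_3p (0.518), of 76 miRNAs ranked. Over the 5 IP groups alone r was 0.817, 0.663, 0.576, 0.282 and 0.632 in that order, and over the 5 input groups 0.680, 0.661, 0.131, 0.623 and -0.187. These correlations describe group means that share libraries and depth, and none was close to 1.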

How the data were processed

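Per the study's methods, RNA from inputs and anti-HA beads was sequenced on an Illumina NextSeq (36 bases, single end) after TruSeq Small RNA preparation, and processed by the authors with sRNAbench (MirGeneDB annotation, mean quality threshold Phred 20). GRCh38 is named in the submitters' processing notes. The deposited values are RPM relative to all reads in a library. The table's adjustment of reads and expression minimum are not described, and identical rows may share reads. Of 116 values of 1 read, 76 fall in the 22 rows that have an identical partner.

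The members, gene lists and tests were chosen with earlier results of these data known. Values were scaled by median of ratios, filtered (at least 1 scaled RPM in 2 libraries of a group), and tested on log2(RPM + 1) with limma 3.58.1 in R 4.3.3, with Benjamini-Hochberg adjustment over all miRNAs tested. Empty IP was compared in RPM as deposited, since scaling would remove the difference in total miRNA. Shares were compared by exact two-sided permutation tests. The fits were tested on simulated data first. Sequences came from RefSeq (GRCh38.p14) and loci from GENCODE on GRCh38.

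Named genes were the Mir-181 guides, the listed Mir-181 passengers, guides of Mir-30, Mir-17 and Let-7, and the 5 miRNAs with the pattern nearest to the summed Mir-181 guides. IP and input of a replicate share a lysate by the study's methods. Deviations of same-numbered libraries correlated above 0.1 in all 3 pairs for F182del IP with WT IP (0.342, 0.177 and 0.113) and for F182del, N359H and Empty input with WT input. There, and for IP with input, the replicate number pairs the libraries. The values reported are from the fits without the block, and blocked values stand beside a result where they change a call or move a count by over 1.5 times. Total reads per library ran from 9395 to 4162450.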

Additional observations from a re-analysis of the deposited data

How the results depend on the processing

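Guide values rest on 0 to 17 reads per library, which limits every comparison. The planned edgeR and DESeq2 fits were not run, because the RPM steps could not be established as unsplit reads. Across the other alternatives (pseudocount, filter, scaling, replicate block, all AGO2 groups in 1 fit), 105 counts of called Mir-181 strands or ratios kept their value and 5 did not. At a pseudocount of 10 RPM, the guides called went from 0 to 1 for D619N IP against WT IP and for N359H IP against its input, and from 1 to 0 for F182del IP against its input. In RPM as deposited they went from 0 to 1 for WT IP against its input and from 1 to 0 for F182del. Leaving out 1 library gave 0 to 1 guides called for G604R and D619N IP against WT IP, F182del and N359H IP against input and G604R input against WT input, 1 to 2 for Empty IP against WT IP, and 0 elsewhere. The replicate block changed no call of a guide. For N359H, G604R and D619N IP against WT IP the libraries share only a replicate number, and there the block moved the miRNAs called for G604R from 6 to 0.

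Directions turned as follows. In RPM as deposited, P1a/P1b became -0.23 for G604R IP against WT IP, 0.99 for WT and 1.38 for F182del IP against input, P1b* became -0.73 for F182del IP against WT IP and P1a* 1.94 for N359H IP against input. P2a/P2b for F182del IP against input became -0.011 at a pseudocount of 10 RPM. As shares of all reads, the family differences became 4.2e-06 points for N359H IP, 0.00345 for WT IP against input and -6.06e-05 for Empty input. The P1 share difference of N359H became -3.62 points with identical rows counted each and -0.298 with the replicate block.

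With 1 library left out, log2 fold changes ran from -2.16 to 0.61 (P2a/P2b, N359H against WT IP), -0.72 to 1.76 (P1a/P1b, G604R), 2.42 to 4.86 (P1a/P1b, D619N), -0.11 to 1.5 and -0.70 to 1.47 (P2a/P2b, F182del and N359H against input), -0.53 to 0.44 (P1b*, F182del), -2.69 to 0.52 (P1a*, N359H), -2.64 to 0.55 (P1b*, D619N), -0.17 to 0.29 (P1a*, D619N) and -1.38 to 1.03 (P1a*, N359H against input). Family share differences ran from -0.0185 to 0.00553 (F182del IP), -0.0354 to 0.0189 (N359H IP), -0.0409 to 0.000914 (G604R IP), -0.115 to 0.0130 (WT IP against input), -0.0323 to 0.0955 (G604R input), -0.0367 to 0.0930 (D619N input) and -0.00769 to 0.120 points (Empty input). The P1 share of N359H ran from -12.8 to 18.5 points, and passenger share differences from -4.14 to 4.42 (F182del) and -3.01 to 6.22 points (G604R). The causes were not tested.

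The number of all miRNAs called against WT IP ran, over the alternatives and then over left-out libraries, from 2 to 9 and 3 to 10 for F182del (8 as reported), 0 to 1 and 0 to 3 for N359H (0), 0 to 6 and 0 to 14 for G604R (6), 0 to 28 and 15 to 29 for D619N (18), and 72 to 101 and 79 to 97 for Empty (96). Against input it ran from 14 to 100 and 1 to 17 for WT (15), 22 to 92 and 15 to 32 for F182del (31), 14 to 49 and 3 to 23 for N359H (14), 0 to 27 and 8 to 16 for G604R (9), and 2 to 22 and 12 to 21 for D619N (18). Between inputs at most 1 was called under the alternatives and at most 11 without 1 library.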
